A study of Mus musculus with 8 samples.

Results

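The genes described here are the enzymes of glutathione, thioredoxin and superoxide defence, together with the transcription factor NRF2 and its inhibitor KEAP1. They were taken by gene symbol from a deposited table of mouse cornea RNA, and 52 of its 16091 genes matched. The symbols covered the alpha, kappa, mu, omega, pi, theta and microsomal classes of glutathione transferases. The transferase genes Gstz1 and Hpgds were not among them, were counted with other genes of the pathway, and did not pass. Glutathione peroxidases, peroxiredoxins, thioredoxins and their reductases, superoxide dismutases and catalase were also covered. They also covered Gclc, Gclm, Gsr, G6pdx, Srxn1, Nqo1, Nqo2, Nfe2l2 and Keap1. Of the matching names, 1 pseudogene copy was left out.

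Bulk RNA was measured in whole mouse corneas of 2 genotypes, 4 Opn5-null (Opn5-/-) and 4 wild-type, lettered A to D in each. Opn5 encodes opsin 5, a violet-sensitive photopigment, and the comparison asks how the wounded cornea's transcripts differ without it. All 8 corneas had their epithelium debrided and were frozen 12 hours later, so no unwounded cornea was included. The sources used here do not give strain, age, sex, light exposure or how the null allele was made, and do not explain the word Light in every title. Opn5 itself was not analysed here, so the genotypes rest on the labels. No label says that the samples of a genotype came from separate animals, so p-values measure only how far these samples spread, and that spread may be technical.

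Glutathione is a cysteine-containing tripeptide that donates electrons to peroxidases and is joined to reactive compounds by transferases. Oxidized glutathione and oxidized thioredoxin are returned to their reduced forms by reductases that use NADPH. NRF2, encoded by Nfe2l2, is held at a low level by KEAP1, and under oxidative or electrophilic stress it accumulates and binds antioxidant response elements in many of these genes. The cornea faces light and oxygen directly, and its epithelium is known for large amounts of enzymes that handle oxidized compounds.

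Values are normalized counts, which are gene read counts divided by 1 size factor per library, and libraries held 21111715 to 28219234 recovered reads. Every log2 fold change is Opn5-null over wild-type on the log2(value + 1) scale, with its standard error (SE), and understates the change of low genes. A gene was called when its Benjamini-Hochberg adjusted p from limma, over the 16085 genes tested, was below 0.05. All 52 antioxidant genes were tested. Among them 8 were higher in Opn5-null corneas (15.4%) and 13 were lower (25.0%), while 31 did not pass. Over all genes tested, 18.8% were higher and 13.5% were lower, 3029 and 2175 genes. Quantile normalization turned that split to 2532 higher and 3746 lower and moved the median of all genes to -0.13, while the 52 genes then had 7 higher and 16 lower. On the deposited scale the median log2 fold change of the 52 genes was -0.07, against -0.02 over all genes tested. In 11 of the 52 genes all 4 Opn5-null libraries lay above all 4 wild-type libraries, and in 16 all 4 lay below, against 20.3% and 18.1% of all genes tested. The count of lower genes was 8 without Opn5-null A and 6 without wild-type A, in fits where the lower calls over all genes also dropped, to 1723 (10.7%) and 1078 (6.7%). By the authors' deposited table, with the same threshold of 0.05 on its adjusted p-values, 10 of the 52 were higher and 16 lower, against 21.9% and 16.9% of its genes, and these held all 8 and all 13 of the calls given here. The share of each library's summed values taken by the 52 genes was 0.808%, 0.859%, 0.972% and 0.613% in Opn5-null A to D, against 1.35%, 1.29%, 1.26% and 1.27% in wild-type A to D.

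**Figure D1:**
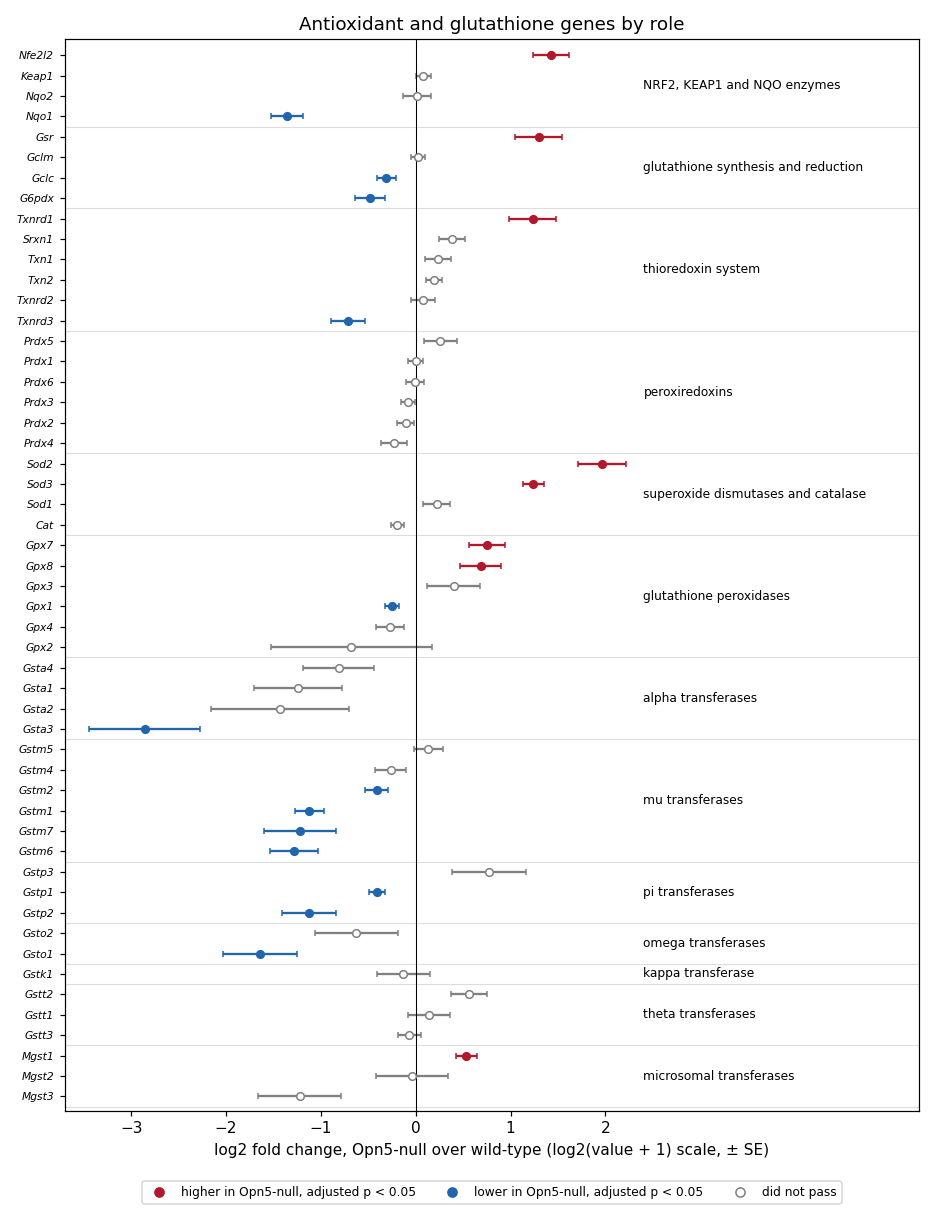
Log2 fold changes of the 52 genes, Opn5-null over wild-type, with SE, grouped by role. Filled points passed an adjusted p below 0.05 by limma: 8 were higher in Opn5-null corneas, the highest being Sod2 at 1.96, and 13 were lower, the lowest being Gsta3 at -2.86.

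The tissue label was checked against markers. The epithelial genes Krt12 and Aldh3a1, the keratocyte genes Kera and Lum, and the endothelial gene Slc4a11 were detected in all 8 libraries. Of 10 corneal epithelial markers, 3 were lower in Opn5-null corneas, and their summed level lay between 92379.8 and 394291 in Opn5-null and between 480334 and 636432 in wild-type corneas. As mean log2 differences from the wild-type mean, the epithelial list stood at -1.35, -0.68, -0.57 and -2.61 in Opn5-null A to D. Conjunctival and goblet cell markers were lower in 4 of 6 cases, with a summed level between 9031 and 40466 in Opn5-null and between 73944 and 103769 in wild-type corneas. Neutrophil markers were higher in 8 of 10 cases, with a summed level between 43567 and 138771 in Opn5-null and between 16916 and 31690.0 in wild-type corneas. The neutrophil list stood at 2.28, 1.66, 0.83 and 2.07 in Opn5-null A to D. Monocyte and macrophage markers were higher in 9 of 10 cases, with a summed level between 21659.9 and 77701 in Opn5-null and between 3429.8 and 6797 in wild-type corneas, and stood at 2.75, 2.35, 1.80 and 2.50. Keratocyte markers were higher in 2 of 8 cases and lower in 2, and endothelial markers were lower in 1 of 5 cases. Red blood cell markers were higher in 1 of 3 cases and lower in 1, and lens markers were lower in 6 of 8 cases. Beside these marker counts, 18.8% of all genes tested were higher and 13.5% were lower. The keratocyte and endothelial counts, from short lists, are not far from those shares. None of the markers tested was at 0 in a whole genotype. Mpo, Elane, Spdef, Mip, Lim2 and 5 red blood cell markers had no match by symbol in the deposited table. In bulk tissue, fewer cells of a type and less RNA per cell cannot be told apart, which holds for every gene below.

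**Figure D2:**
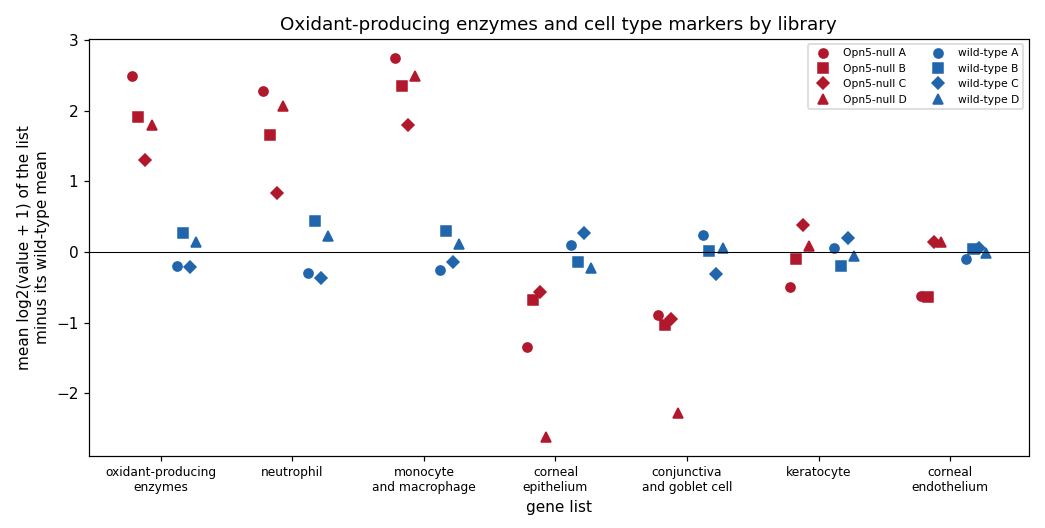
Mean log2(value + 1) of each gene list in each library, minus the list's wild-type mean, with Opn5-null libraries in red left of wild-type libraries in blue. Oxidant-producing and leukocyte lists lie above 0 in all 4 Opn5-null libraries, epithelial and conjunctival lists lie below 0, and Opn5-null D has the lowest epithelial value at -2.61.

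Nfe2l2, the NRF2 gene on chromosome 2, rose in Opn5-null corneas while its inhibitor gene Keap1 did not pass. Nfe2l2 measured 14279, 10662, 6981 and 11259.9 normalized counts in Opn5-null A to D, against 3670.1, 4219, 3862 and 3837 in wild-type A to D. The genotypes did not overlap, with A the highest and C the lowest of the Opn5-null libraries. Its mean was 2.77-fold higher, a log2 fold change of 1.43 ± 0.19 (SE) at adjusted p = 0.00104 by limma. Keap1, whose product hands NRF2 to a ubiquitin ligase, measured 851, 906, 977 and 919 normalized counts in Opn5-null A to D, against 862, 838, 943 and 816 in wild-type A to D. The Keap1 ranges overlapped, and its log2 fold change was 0.08 ± 0.08 (SE, adjusted p = 0.459 by limma), with a sign that turned under quantile and upper-quartile scaling.

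Nqo1, a textbook NRF2 target, fell. It encodes a quinone reductase that uses NADPH or NADH. Its values were 330.3, 433, 415 and 269 normalized counts in Opn5-null A to D, against 938, 872, 1078 and 788 in wild-type A to D. Every Opn5-null library lay below every wild-type library, with D the lowest, and the mean was 2.54-fold lower (log2 fold change -1.36 ± 0.17, SE, adjusted p = 0.000659 by limma). Nqo2, its relative that uses other electron donors, had 638 ± 126 normalized counts in the Opn5-null group, against 626 ± 72.0 in the wild-type group (SD, n = 4) and did not pass (adjusted p = 0.957 by limma).

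Promoter windows of these genes were searched for the core of the antioxidant response element, TGACNNNGC, on both strands. Windows ran from 250 bases before to 50 after each RefSeq transcript start on GRCm38.p6, and 46 of the 52 genes had a window. The core lay in 11 of them (23.9%), against 14.0% of all 27025 genes with a window. It lay in 3 of 6 genes that rose, 3 of 12 that fell and 5 of 28 that did not pass. A match is a description of these letters, and elements outside the window were not searched. The AP-1 motif TGACTCA can fall inside the core, and among the 11 matches it did so in Prdx1.

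The windows of the 6 called genes with a match are shown because they place the same core in genes that moved in opposite directions, with the match in capitals. Each is printed from 5′ to 3′ on the strand of its gene. Nfe2l2 (chr2:75704614-75704913, minus strand), Txnrd1 (chr10:82858956-82859255, plus strand) and Mgst1 (chr6:138140277-138140576, plus strand) rose. Gsta3 (chr1:21240335-21240634, plus strand), Gstm7 (chr3:107931565-107931864, minus strand) and G6pdx (chrX:74428831-74429130, minus strand) fell. The first base of the match lay 240, 92 and 56 bases before the start in Nfe2l2, Txnrd1 and Mgst1, and 121, 129 and 57 bases before it in Gsta3, Gstm7 and G6pdx. In Txnrd1, Mgst1 and G6pdx the core reads on the opposite strand.
Nfe2l2: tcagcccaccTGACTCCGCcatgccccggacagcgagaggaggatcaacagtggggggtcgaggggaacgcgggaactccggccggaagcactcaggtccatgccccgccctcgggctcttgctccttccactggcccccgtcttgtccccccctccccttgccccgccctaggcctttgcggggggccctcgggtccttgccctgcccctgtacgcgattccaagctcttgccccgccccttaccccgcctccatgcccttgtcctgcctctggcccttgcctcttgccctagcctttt
Txnrd1: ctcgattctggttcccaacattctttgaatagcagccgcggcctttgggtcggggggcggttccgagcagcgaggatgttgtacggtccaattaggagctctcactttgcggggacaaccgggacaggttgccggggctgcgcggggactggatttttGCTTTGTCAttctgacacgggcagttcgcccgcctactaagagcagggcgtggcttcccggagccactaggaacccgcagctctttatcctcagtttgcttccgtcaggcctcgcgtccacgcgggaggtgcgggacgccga
Mgst1: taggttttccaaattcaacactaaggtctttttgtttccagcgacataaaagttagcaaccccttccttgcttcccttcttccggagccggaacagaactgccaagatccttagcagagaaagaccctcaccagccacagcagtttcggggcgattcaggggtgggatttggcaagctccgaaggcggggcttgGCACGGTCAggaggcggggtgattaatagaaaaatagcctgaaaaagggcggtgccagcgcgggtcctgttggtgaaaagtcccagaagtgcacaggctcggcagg
Gsta3: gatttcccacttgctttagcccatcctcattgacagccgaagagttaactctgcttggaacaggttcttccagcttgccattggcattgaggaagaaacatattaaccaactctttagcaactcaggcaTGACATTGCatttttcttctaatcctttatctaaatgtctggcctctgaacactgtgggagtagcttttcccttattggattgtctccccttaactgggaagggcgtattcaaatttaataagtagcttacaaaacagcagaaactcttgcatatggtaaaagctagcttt
Gstm7: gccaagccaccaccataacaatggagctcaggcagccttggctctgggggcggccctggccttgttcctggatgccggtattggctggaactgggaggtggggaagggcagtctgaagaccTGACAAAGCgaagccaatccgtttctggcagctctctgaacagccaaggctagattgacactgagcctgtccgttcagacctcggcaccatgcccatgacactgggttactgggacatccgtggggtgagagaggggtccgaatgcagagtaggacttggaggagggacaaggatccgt
G6pdx: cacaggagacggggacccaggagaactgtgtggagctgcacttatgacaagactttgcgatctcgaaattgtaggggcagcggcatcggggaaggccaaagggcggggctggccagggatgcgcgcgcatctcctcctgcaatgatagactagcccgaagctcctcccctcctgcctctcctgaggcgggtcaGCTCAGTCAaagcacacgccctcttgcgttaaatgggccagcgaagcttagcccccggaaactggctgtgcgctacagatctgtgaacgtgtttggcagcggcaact

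Read forward, the core of Txnrd1 and that of Gstm7 are the same letters, TGACAAAGC. Txnrd1 rose and Gstm7 fell. The fall of Gstm7 rests on 72 Opn5-null and 163 wild-type reads with overlapping ranges. Its call ended in 7 of 19 alternatives, and that of G6pdx in 5 of 19. Srxn1, Gclm, Prdx1, Sod1 and Gstm5 also held the core and did not pass.

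Glutathione reductase rose, whereas the catalytic subunit of glutathione synthesis fell. Gsr, which regenerates reduced glutathione, measured 11179.6, 7772, 4661 and 8799.6 normalized counts in Opn5-null A to D, against 2630.1, 3680.2, 3066 and 3305 in wild-type A to D. As for Nfe2l2, the genotypes stood apart, A was highest and C lowest among Opn5-null libraries. The Gsr mean was 2.56-fold higher (log2 fold change 1.30 ± 0.25, SE, adjusted p = 0.00541 by limma). Gclc and Gclm encode the catalytic and modifier subunits of glutamate-cysteine ligase, the rate-limiting enzyme of glutathione synthesis. Gclc had 979, 934, 1047 and 1057 normalized counts in Opn5-null A to D, against 1445, 1221, 1255 and 1078 in wild-type A to D, a fall of 1.24-fold (log2 fold change -0.31 ± 0.10, SE, adjusted p = 0.0404 by limma). Those groups did not overlap, but Opn5-null D lay just below wild-type D. The Gclc call ended without Opn5-null A or B and without wild-type A, B or C in turn, with adjusted p = 0.0773 to 0.109 by limma, and over all its alternatives adjusted p ran from 0.0126 to 0.109. Gclm measured 1532, 1382, 1553 and 1504 normalized counts in Opn5-null A to D, against 1616, 1480.3, 1346 and 1434 in wild-type A to D. Its ranges overlapped, with adjusted p = 0.831 by limma.

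G6pdx encodes glucose-6-phosphate dehydrogenase, which makes NADPH in the pentose phosphate pathway. It measured 2121, 2229.6, 2188 and 1381 normalized counts in Opn5-null A to D, against 2889, 2688, 2869 and 2436 in wild-type A to D. All Opn5-null libraries lay below all wild-type libraries, and D stood apart as the lowest. The mean was 1.37-fold lower (log2 fold change -0.48 ± 0.16, SE, adjusted p = 0.0438 by limma). The log2 fold change was -0.32 without Opn5-null D, with the call kept, while the call ended without Opn5-null A or any single wild-type library (adjusted p = 0.0593 to 0.112 by limma, against 0.0102 at the lowest over its alternatives). Exons of G6pdx overlap Ikbkg on the other strand, and its transcript was 93.2% identical to G6pd2 over 2332 bases, so its level is uncertain where reads could be shared.

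In the thioredoxin system, the cytosolic reductase gene rose and another reductase gene fell. Txnrd1, the cytosolic selenoprotein that reduces thioredoxin, measured 14324, 9109, 5714 and 8475 normalized counts in Opn5-null A to D, against 3508, 4096, 3372 and 4288 in wild-type A to D. Its Opn5-null libraries were all higher, again with A highest and C lowest, and the mean was 2.46-fold higher (log2 fold change 1.23 ± 0.25, SE, adjusted p = 0.00672 by limma). Txnrd3, a reductase of both thioredoxin and glutathione that is abundant in testis, had 392, 489.5, 482 and 302 normalized counts in Opn5-null A to D, against 708, 819, 635 and 555 in wild-type A to D. It was 1.63-fold lower with no overlap (log2 fold change -0.72 ± 0.18, SE, adjusted p = 0.0169 by limma), a call that ended without wild-type A (adjusted p = 0.0523 by limma, the highest of a range from 0.00192 over its alternatives). Srxn1, sulfiredoxin, repairs overoxidized peroxiredoxins. It measured 2399, 1672, 1640.3 and 2280.0 normalized counts in Opn5-null A to D, against 1492, 1571, 1415 and 1564 in wild-type A to D. All Opn5-null values lay above the wild-type ones, but the log2 fold change of 0.38 ± 0.14 (SE) did not pass, with adjusted p = 0.0588 by limma and 0.0497 by edgeR, in a range of 0.0238 to 0.149 over its alternatives. It passed without Opn5-null B or C. The remaining genes of this group, cytosolic Txn1, mitochondrial Txn2 and mitochondrial Txnrd2, had log2 fold changes between 0.08 and 0.23 and did not pass.

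Peroxiredoxins, most of which reduce peroxides with electrons from thioredoxin, showed 0 calls among 6 genes by limma. They had 0 at an unadjusted p below 0.05 by limma, 0 calls by edgeR and by DESeq2, and 3 by limma-voom with quality weights. Over all genes, limma called 18.8% higher and 13.5% lower, edgeR 18.9% and 12.8%, and DESeq2 21.9% and 16.9%. By limma-voom these shares were 25.3% and 21.7%. From a list of 6 genes, such counts are not far from those shares. The peroxiredoxin log2 fold changes ran from -0.23 for Prdx4 of the endoplasmic reticulum to 0.26 for Prdx5. Prdx1, the peroxiredoxin with the most reads, measured 11922, 12307, 13319.6 and 11504 normalized counts in Opn5-null A to D, against 12119, 12960.1, 11494 and 12459 in wild-type A to D. Its groups overlapped, and the ratio of means was 1.00 (adjusted p = 0.999 by limma). A copy of the Prdx1 transcript, Gm21399, is 98.3% identical over 597 bases, so reads may be shared.

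**Figure D3:**
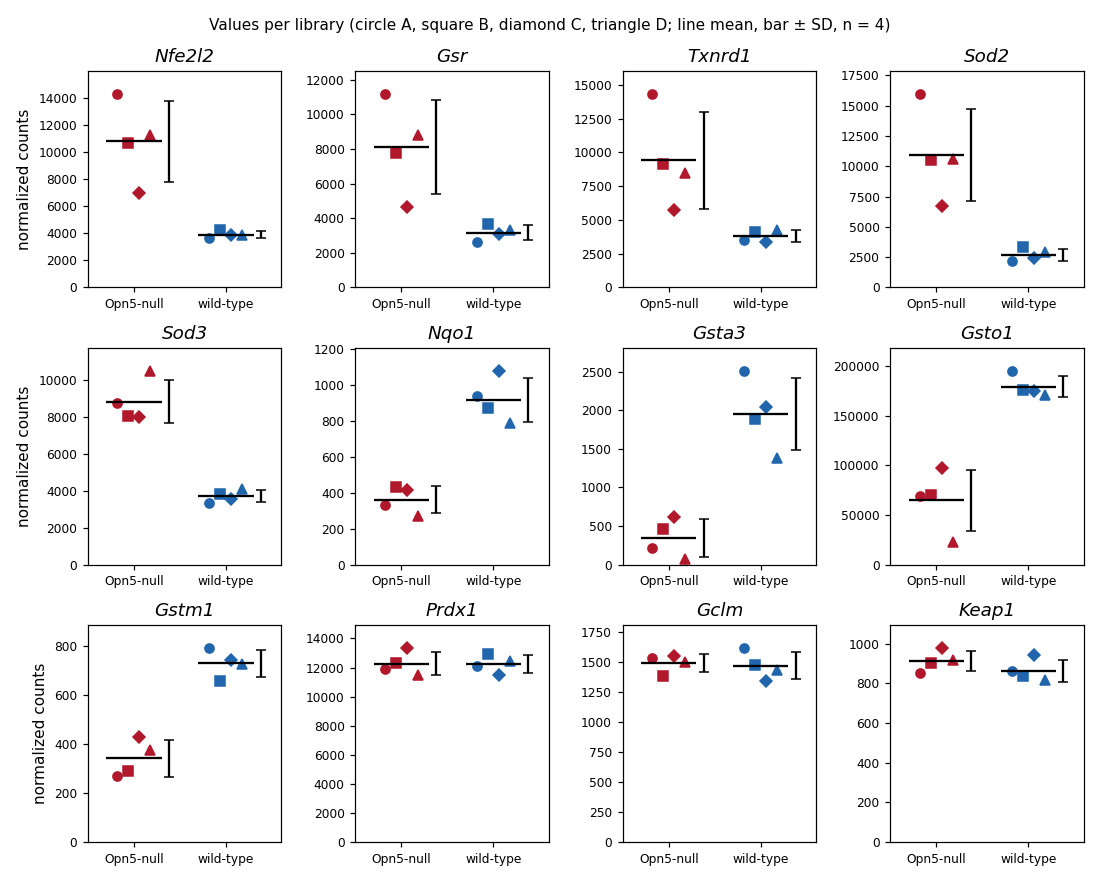
Normalized counts of 12 genes in each library on linear axes from 0, Opn5-null left in red and wild-type right in blue, with mean and SD (n = 4 each). Nfe2l2, Gsr, Txnrd1, Sod2 and Sod3 lie higher in every Opn5-null library, Nqo1, Gsta3, Gsto1 and Gstm1 lie lower, and Prdx1, Gclm and Keap1 overlap.

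Among the superoxide dismutases, the mitochondrial and the extracellular enzymes rose and the cytosolic enzyme did not pass. Sod2, the mitochondrial manganese enzyme, is also a known target of inflammatory cytokine signalling. It measured 15971, 10498, 6696 and 10593 normalized counts in Opn5-null A to D, against 2181, 3314, 2458 and 2898 in wild-type A to D. The lowest Opn5-null value, in C, was above the highest wild-type value, in B, and the mean was 4.03-fold higher. With a log2 fold change of 1.96 ± 0.25 (SE) at adjusted p = 0.000845 by limma, it was the largest rise among the 52 genes. Sod3, which is secreted and binds the extracellular matrix, had 8762, 8019, 7969.5 and 10469 normalized counts in Opn5-null A to D, against 3343, 3847, 3566 and 4106 in wild-type A to D. Here D was highest among Opn5-null libraries and A, B and C were close together. Sod3 was 2.37-fold higher (log2 fold change 1.24 ± 0.11, SE) and had the lowest adjusted p of the 52 genes, 0.000153 by limma. Sod1, the cytosolic copper-zinc enzyme, had 1501 ± 303 normalized counts in the Opn5-null group, against 1273 ± 124 in the wild-type group (SD, n = 4), and its groups overlapped (adjusted p = 0.257 by limma).

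Catalase, the peroxisomal enzyme that splits hydrogen peroxide, is encoded by Cat. It measured 812, 829, 796 and 755 normalized counts in Opn5-null A to D, against 935, 961, 910.0 and 845 in wild-type A to D. All Opn5-null values lay below the wild-type ones by a small margin, and the log2 fold change of -0.19 ± 0.07 (SE) missed the threshold, with adjusted p = 0.0674 by limma and 0.0284 by DESeq2, in a range of 0.00934 to 0.167 over its alternatives.

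Glutathione peroxidases divided by member. Gpx7 and Gpx8, which reside in the endoplasmic reticulum, rose, and Gpx1, the cytosolic and mitochondrial selenoprotein, fell. Gpx8 measured 2273, 2089.7, 2737 and 4434 normalized counts in Opn5-null A to D, against 1716, 1790.0, 1594 and 1768 in wild-type A to D. Its Opn5-null libraries were all higher and D stood far above the rest, with a log2 fold change of 0.68 ± 0.21 (SE) at adjusted p = 0.04 by limma. The Gpx8 value was 0.45 without Opn5-null D, and its call ended after quantile normalization (adjusted p = 0.0772 by limma), after upper-quartile scaling, without Opn5-null C or any single wild-type library, over a range of 0.00732 to 0.0975. Gpx7 had 125, 148, 168 and 207 normalized counts in Opn5-null A to D, against 78.7, 107, 84.1 and 112 in wild-type A to D. Those groups did not overlap, and the 1.70-fold difference (log2 fold change 0.75 ± 0.19, SE, adjusted p = 0.0186 by limma) lost its call without wild-type A or C, where adjusted p was 0.0587 and 0.0549 by limma, the lowest over its alternatives being 0.00142. Gpx1 measured 3419, 3649.6, 3923 and 3386 normalized counts in Opn5-null A to D, against 4224, 4567, 4223 and 4081 in wild-type A to D. Its fall was small, 1.19-fold (log2 fold change -0.25 ± 0.07, SE, adjusted p = 0.0324 by limma), and the call ended in 6 of the 8 fits that left out 1 library, all but those without Opn5-null C or D. Gpx4, which reduces lipid hydroperoxides in membranes, secreted Gpx3 and epithelial Gpx2 did not pass. The Gpx4 transcript is 99.7% identical to Gpx4-ps2 over 733 bases. Gpx2 is 98.1% identical to Gpx2-ps1 over 572 bases, so reads of both genes may be shared. Gpx3 ranged from 921 to 1028 in Opn5-null A, B and C and stood at 2392 in Opn5-null D, against 867 to 1002.5 in the wild-type libraries.

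Among the 22 glutathione transferase genes of the matched classes, 8 fell (36.4%) and 1 rose (4.55%). Over all genes tested, 13.5% were lower and 18.8% higher. The median log2 fold change of the 22 genes was -0.52, against -0.02 over all genes tested. Without wild-type A, 5 fell, in the fit where 6.7% of all genes were lower. Gsto1, the omega-class enzyme on chromosome 19 with thiol transferase and dehydroascorbate reductase activity, had the highest level of the 52 genes. Per kilobase of exon it averaged 32039 normalized counts in the Opn5-null group, against 88615 in the wild-type group, ahead of Gsta4 at 14259.7 and 22446. Gsto1 measured 68716, 69758, 97721 and 23061 normalized counts in Opn5-null A to D, against 194977, 176384, 174996 and 170718 in wild-type A to D. No Opn5-null library reached the wild-type range, and D was the lowest by a wide margin. The mean was 2.77-fold lower (log2 fold change -1.64 ± 0.39, SE, adjusted p = 0.0141 by limma), and -1.20 on the log2 scale without Opn5-null D. Gsto1 made up 30.0%, 32.5%, 43.0% and 15.3% of the summed values of the 52 genes in Opn5-null A to D, against 62.3%, 58.3%, 59.5% and 59.9% in wild-type A to D. Its neighbour Gsto2 was low, at 9.54 ± 4.15 normalized counts in the Opn5-null group, against 15.5 ± 7.23 in the wild-type group (SD, n = 4), and did not pass.

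**Figure D4:**
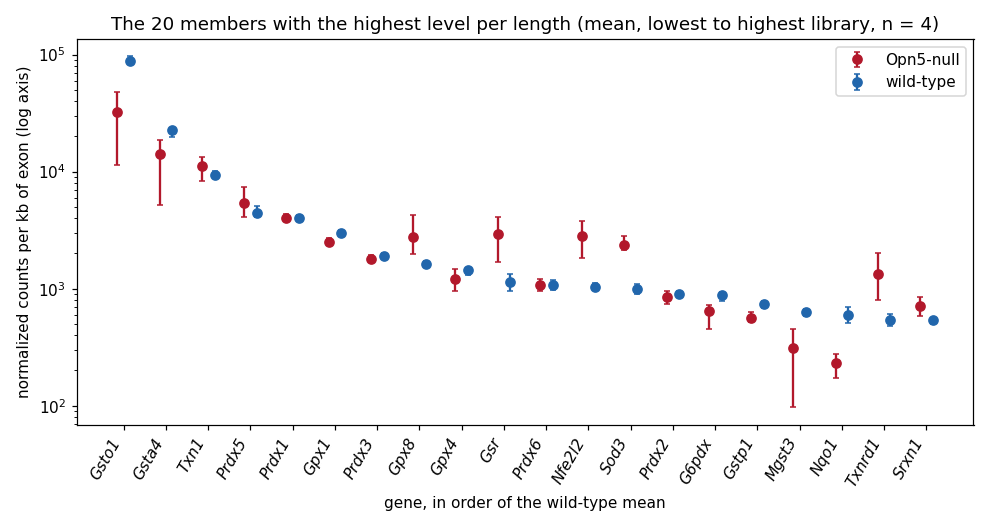
Mean normalized counts per kilobase of merged exon on a log axis for the 20 genes with the highest wild-type level, with bars from the lowest to the highest library (n = 4), Opn5-null in red left of wild-type in blue. Gsto1 leads in both genotypes, at 32039 in Opn5-null corneas, against 88615 in wild-type ones.

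Of the alpha class, Gsta3 fell and the other 3 genes had negative log2 fold changes that did not pass. Gsta3, on chromosome 1, measured 211, 466, 618 and 78.4 normalized counts in Opn5-null A to D, against 2505, 1889, 2044 and 1376 in wild-type A to D. The groups were far apart, D was the lowest Opn5-null library and C the highest, and the mean was 5.69-fold lower (log2 fold change -2.86 ± 0.58, SE, adjusted p = 0.00738 by limma). Gsta4, known for conjugating the lipid peroxidation product 4-hydroxynonenal, had 18719, 23458, 23457 and 6576 normalized counts in Opn5-null A to D, against 29128, 29512, 29943 and 25084 in wild-type A to D. All Opn5-null values were below the wild-type ones, yet with D far below the other Opn5-null libraries the log2 fold change of -0.81 ± 0.38 (SE) did not pass (adjusted p = 0.13 by limma). Gsta1 and Gsta2 had adjusted p = 0.0704 and 0.165 by limma, and their transcripts are 99.5% and 98.2% identical to Gm3776 and Gm10639, so their levels are uncertain.

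The mu class lies as a cluster on chromosome 3, and 4 of its 6 genes fell, against 13.5% of all genes tested. Gstm1, the mu gene with the highest level per kilobase in wild-type corneas, measured 268, 288, 430.2 and 377 normalized counts in Opn5-null A to D, against 791, 659.8, 743 and 727 in wild-type A to D. Its genotypes did not overlap, and the mean was 2.14-fold lower (log2 fold change -1.12 ± 0.15, SE, adjusted p = 0.0011 by limma). Gstm2 had 218, 262, 281 and 208 normalized counts in Opn5-null A to D, against 341, 301, 314 and 327 in wild-type A to D, and it fell by a smaller amount (log2 fold change -0.41 ± 0.12, SE, adjusted p = 0.0295 by limma). Gstm6 and Gstm7 were low, with 48 and 72 recovered reads over the 4 Opn5-null libraries against 122 and 163 over the wild-type ones. Gstm6 measured 7.90, 10.7, 11.7 and 16.5 normalized counts in Opn5-null A to D, against 26.6, 28.5, 30.6 and 30.8 in wild-type A to D, with no overlap (log2 fold change -1.29 ± 0.26, SE, adjusted p = 0.0062 by limma). Gstm7 had 7.90, 15.4, 27.6 and 17.4 normalized counts in Opn5-null A to D, against 51.1, 45.9, 26.8 and 32.7 in wild-type A to D. Its ranges overlapped, since Opn5-null C exceeded wild-type C (log2 fold change -1.22 ± 0.38, SE, adjusted p = 0.0376 by limma). The Gstm2 call ended without Opn5-null A and without wild-type A, C or D in turn, and the Gstm7 call without Opn5-null A or B and without wild-type A, B or D. Gstm4 and Gstm5 did not pass. Members of this class are alike in sequence, Gstm1 being 89.5% identical to Gstm3 over 1054 bases, so the split of reads between them is uncertain.

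Gstp1, the pi-class gene, fell and Gstp2 fell with it, but these transcripts are 98.2% identical over 707 bases and may share reads. Gstp1 measured 837, 824, 984 and 801 normalized counts in Opn5-null A to D, against 1060.4, 1143, 1217 and 1138 in wild-type A to D. The ranges did not overlap, and the log2 fold change was -0.41 ± 0.09 (SE, adjusted p = 0.00846 by limma). Gstp2 had 13.4 ± 5.08 normalized counts in the Opn5-null group, against 29.0 ± 1.50 in the wild-type group (SD, n = 4), with a log2 fold change of -1.12 ± 0.28 (SE) at adjusted p = 0.0177 by limma, a call that ended without wild-type A (adjusted p = 0.0542 by limma, the highest of a range from 0.00262) and without both D libraries. Gstp3 did not pass. Neither did the kappa-class gene Gstk1, at 61.6 ± 22.7 normalized counts in the Opn5-null group, against 64.5 ± 9.57 in the wild-type group (SD, n = 4, adjusted p = 0.747 by limma), nor any of the 3 theta-class genes. Gstt3, the theta gene with the most reads, measured 238, 229.9, 261 and 242 normalized counts in Opn5-null A to D, against 241, 239, 316 and 228 in wild-type A to D, with overlapping ranges. Gstt2 had 139, 123, 101 and 103 normalized counts in Opn5-null A to D, against 59.3, 78.1, 82.2 and 98.1 in wild-type A to D. All its Opn5-null values were above the wild-type ones. The Gstt2 log2 fold change of 0.56 ± 0.19 (SE) just missed the threshold (adjusted p = 0.0519 by limma). By the authors' deposited table Gstt2 was higher.

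Mgst1, a membrane-bound transferase that also reduces lipid hydroperoxides, was the transferase gene called higher by limma. It measured 1255, 1203, 1259 and 1552 normalized counts in Opn5-null A to D, against 801, 935, 868 and 1031 in wild-type A to D. The Opn5-null libraries were all above the wild-type ones, with D highest, and the log2 fold change was 0.53 ± 0.11 (SE, adjusted p = 0.00725 by limma). Mgst2 and Mgst3 did not pass. Mgst3 had 297, 468, 499.6 and 106 normalized counts in Opn5-null A to D, all below the wild-type range of 635 to 739, with adjusted p = 0.0634 by limma.

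Of the 13 genes that fell, 9 had their lowest value in Opn5-null D, the library where the epithelial list was also lowest. These were Gsto1, Gsta3, Gstm2, Gstp1, Gstp2, Nqo1, G6pdx, Txnrd3 and Gpx1. Gstm1, Gstm6 and Gstm7 were lowest in Opn5-null A, and Gclc was lowest in B. The lowest library was found for these called genes only, so no share over all lower genes stands beside the 9 of 13. Whether that count is more than usual for a lower gene was not tested. The part of the epithelial markers in these falls was not tested either. Nfe2l2, Gsr, Txnrd1 and Sod2 were each highest in Opn5-null A and lowest in C, and so were the neutrophil and the macrophage lists. The order of the libraries was likewise not counted over all higher genes, and the part of the leukocyte markers in those rises was not tested. Sod3, Gpx7, Gpx8 and Mgst1 had another order and were highest in Opn5-null D.

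**Figure D5:**
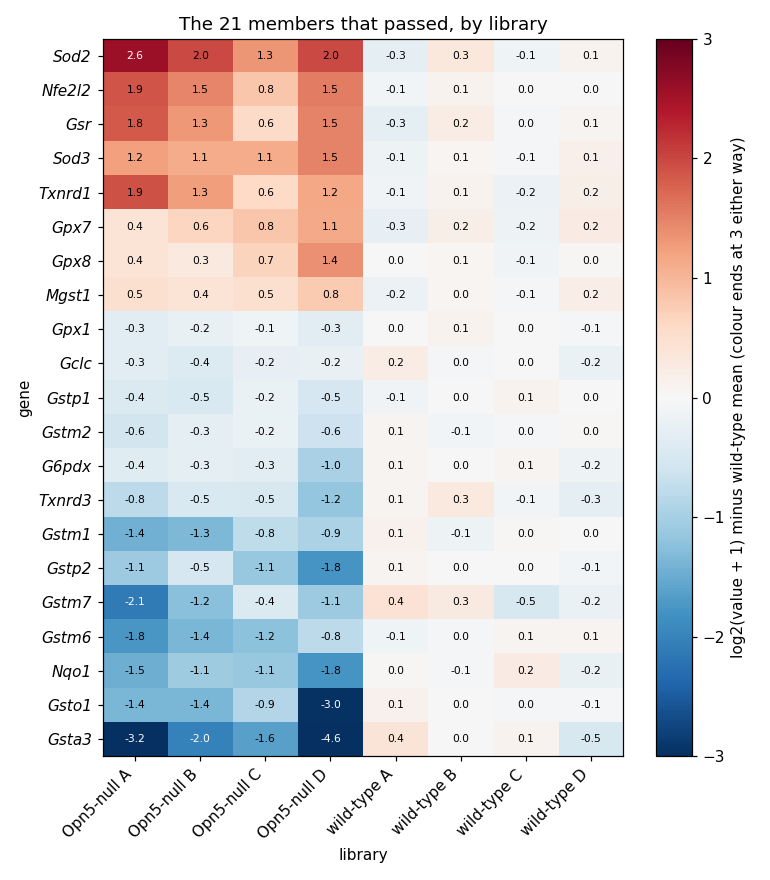
Log2(value + 1) of the 21 called genes in each library minus the wild-type mean, Opn5-null libraries left of wild-type ones, red for higher and blue for lower. The Opn5-null columns differ in size, with Gsta3 at -4.6 in D and -1.6 in C, and Sod2 at 2.6 in A and 1.3 in C.

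Other genes of the pathway were taken as 83 genes in 7 lists, of which 82 were tested. Among them 29 rose (35.4%) and 14 fell (17.1%), against 18.8% and 13.5% of all genes tested. The lists were chosen with earlier results of these data known, so these counts are not a test of the pathway. The same shares of all genes apply to the count of each list below. Several of those counts, from short lists, lie near these shares. The fall count was 9 without wild-type A, 7 without B and 9 without C, where 6.7%, 9.26% and 7.72% of all genes were lower.

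Genes of glutathione synthesis, transport and turnover were split, with 3 of 11 higher and 4 lower. Slc7a11, the cystine transporter that supplies cysteine for glutathione, measured 32085, 15669.8, 7358 and 18916 normalized counts in Opn5-null A to D, against 650.4, 2209.9, 982 and 1806 in wild-type A to D. All Opn5-null values were higher, with A highest, and the log2 fold change was 3.69 ± 0.51 (SE, adjusted p = 0.00118 by limma). Gss, glutathione synthetase, fell, with 767 ± 70.3 normalized counts in the Opn5-null group, against 1727 ± 75.6 in the wild-type group (SD, n = 4, adjusted p = 5.48e-05 by limma). The genes for turnover enzymes Chac1 and Oplah fell, with log2 fold changes of -1.26 and -0.89. Of other glutathione-using enzymes, 3 of 11 rose and 2 fell. Glrx, glutaredoxin, had 4375 ± 1489.5 normalized counts in the Opn5-null group, against 793 ± 168 in the wild-type group (SD, n = 4), a log2 fold change of 2.42 ± 0.26 (SE) at adjusted p = 0.000431 by limma. Ptges, a prostaglandin E synthase that needs glutathione, rose by 0.91, while Glrx2 and Hagh fell, with log2 fold changes of -0.44 and -0.36. The Hagh call ended without wild-type A or B.

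Partners of thioredoxin rose in 5 of 14 cases and fell in 2. Msrb1 and Msra, which repair oxidized methionine, had log2 fold changes of 2.04 ± 0.22 and 1.01 ± 0.16 (SE, adjusted p = 0.000413 and 0.00184 by limma). Sesn2, a stress-induced sestrin, and Txnip, the thioredoxin-binding inhibitor, rose by 0.87 and 0.66 on the log2 scale. NADPH-supplying enzymes fell in 3 of 8 cases and rose in 1. Pgd, the pentose phosphate dehydrogenase after G6pdx, fell by a log2 fold change of -0.31, and Idh1, the cytosolic isocitrate dehydrogenase, had -0.91. The Pgd call ended without wild-type B or C. Tkt, transketolase, known as an abundant protein of the corneal epithelium, had 7642 ± 2899.8 normalized counts in the Opn5-null group, against 14408 ± 5111 in the wild-type group (SD, n = 4, adjusted p = 0.049 by limma), a call that ended in 10 of 19 alternatives, among them each fit without 1 library except Opn5-null B or C. Nnt, the mitochondrial transhydrogenase gene, which carries a deletion in the C57BL/6J strain, rose by 0.76 on the log2 scale, and the labels give no strain.

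NRF2 partners and regulators rose in 5 of 13 cases and fell in 1. Bach1, a repressor that competes with NRF2 for its sites, measured 5587, 3868, 2670.4 and 4114 normalized counts in Opn5-null A to D, against 1636, 1794, 1694 and 1808 in wild-type A to D. It had a log2 fold change of 1.18 ± 0.19 (SE) at adjusted p = 0.0027 by limma and no overlap between genotypes. Sqstm1, which encodes the autophagy adaptor p62 that binds KEAP1, rose by 1.15, and the small MAF genes Maff and Mafk rose by 1.13 and 0.50. The Mafk call ended without wild-type A, and both calls ended without the D libraries. Other NRF2 targets rose in 5 of 14 cases and fell in 2. Hmox1, heme oxygenase, had 2136 ± 665 normalized counts in the Opn5-null group, against 625 ± 155 in the wild-type group (SD, n = 4), a log2 fold change of 1.75 ± 0.26 (SE) at adjusted p = 0.00171 by limma. The ferritin genes Fth1 and Ftl1 rose by 1.69 and 1.29, and the aldehyde oxidase gene Aox1 fell, with a log2 fold change of -0.86.

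Genes of oxidant-producing enzymes rose in 7 of 11 cases. All 6 tested genes of the phagocyte NADPH oxidase rose. Cybb, its membrane catalytic subunit, measured 6085, 4332, 2822 and 4249 normalized counts in Opn5-null A to D, against 564, 950.1, 686 and 757 in wild-type A to D. The genotypes were far apart, with a log2 fold change of 2.54 ± 0.24 (SE) at adjusted p = 0.00024 by limma. Ncf1 and Ncf4, cytosolic subunits, and Cyba, the membrane partner of Cybb, had log2 fold changes of 3.23, 2.79 and 1.88. The oxidases Nox4, Duox1 and Duox2 and the gene Xdh did not pass. The oxidase genes stood beside leukocyte markers of which 8 of 10 neutrophil and 9 of 10 macrophage genes rose, and the part of those cells in this result was not tested.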

How the data were processed

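RNA of 8 debrided corneas was sequenced after ribosomal and globin depletion with a stranded kit, per the labels' protocols. RSEM 1.3.1 is named in the submitters' processing notes, and the sources used here do not name the aligner, the genome build or the strand setting. The authors deposited normalized counts (a signal with 1 size factor per library), a log2 fold change and p-values per gene. Dividing a library's values by its smallest value above 0 gave whole reads for 100% of values (tolerance 0.001). limma 3.58.1 (R 4.3.3, trend and robust) was fitted on log2(value + 1) for genes that reached a value of 1 in 4 or more libraries, with Benjamini-Hochberg adjustment over 16085 genes and a threshold of 0.05. edgeR 4.0.16, DESeq2 1.42.0 and limma-voom were run on the recovered reads, and other scalings, filters, a pseudocount of 0.1, a replicate block and left-out libraries were tried. The fit was tested on simulated data that gave both genotypes the same spread. Opn5-null libraries differed more among themselves than wild-type ones, so that simulation cannot show how the fit holds under unequal spread. Genomic context came from GENCODE M21, transcript identity from BLAST+ 2.17.0 and promoters from RefSeq.

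Members and lists were chosen with earlier results of these data known. Full values are given for up to 4 called genes per role by fold change where the higher genotype averaged 10 or more, for 10 genes named whatever their values, and otherwise for the role's gene with the highest mean. Library values of the uncalled genes Gsta4, Gstt2, Mgst3 and Gpx3 are given outside that rule. Gsta1 and Txn2, whose genotypes did not overlap, are without full values. Of each pathway list, up to 4 called genes by lowest p are named, and other members only by their values beside these. Pairs of wild-type libraries differed by a chi-square per gene of 10.2 to 29.6, so none was counted as a repeat. Opn5-null pairs differed more, by 44.7 to 196, and were not counted as repeats either. The main fit used a common variance per gene for both genotypes.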

Additional observations from a re-analysis of the deposited data

Results flagged for a closer look

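In 8 of 104 groups (52 genes in 2 genotypes), 1 library stood apart from the other 3 by Dixon's criterion for 4 samples, and chance gives about 1 in 20 groups. Opn5-null D was that library for 4 genes. G6pdx was low there at 1381 normalized counts, and Gpx3 was high at 2392. Mgst1 and Txn2 were also high in Opn5-null D, at 1552 and 2119. Among wild-type libraries, Gpx4 was low in A at 2235 and Gsta4 was low in D at 25084. Gstt3 was high in wild-type C at 316, and Prdx3 was high in wild-type B at 3008.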

How the results depend on the processing

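Of the 21 called genes, 12 kept their call under all 19 alternatives, namely Nfe2l2, Nqo1, Gsr, Txnrd1, Sod2, Sod3, Mgst1, Gsta3, Gsto1, Gstm1, Gstm6 and Gstp1, and 0 turned direction. Leaving out 1 library gave 6 to 10 higher and 6 to 16 lower antioxidant genes, and 24 to 32 higher and 7 to 16 lower other pathway genes. The lower transferases then numbered 5 to 11. With limma-voom and quality weights 12 antioxidant genes were higher and 17 lower, and 35 and 21 other pathway genes, while the calls over all genes also grew, to 4062 higher (25.3%) and 3487 lower (21.7%). With a replicate block on the letters A to D the antioxidant genes had 8 higher and 9 lower calls, the other pathway genes 27 and 11, and all genes 2545 and 1691. The calls of Gclc, Gpx1, Gstm2, Gstm7 and Pgd ended under the block. Libraries sharing a letter had correlations of -0.16 (A), -0.13 (B), 0.14 (C) and 0.13 (D), and 1 of 8 libraries correlated best with its own letter, so the letters were not taken as pairs. Quantile and upper-quartile scaling moved the median of all genes to -0.13. Uncalled genes near 0 changed sign. Keap1 was -0.0032 after quantile and -0.0353 after upper-quartile scaling, Gclm was -0.0951 and -0.0897 there and -0.0473 by limma-voom, and Gstk1 was 0.22 by limma-voom. Prdx1 was 0.0007 by DESeq2, 0.0017 after TMM scaling, 0.0131 by limma-voom and 0.0381 without both D libraries. With 1 library left out, Gclm ran from -0.0161 to 0.0717, Gstk1 from -0.2994 to 0.0838, Gstt3 from -0.1177 to 0.0394 and Prdx1 from -0.0406 to 0.0299. The cause was not tested. Depth limits low genes such as Gstm6, with 48 reads over the Opn5-null and 122 over the wild-type libraries.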

Other observations

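Ratios within a library, which do not depend on scaling between libraries, separated the genotypes for 5 pairs of genes chosen after their values were seen. The mitochondrial to cytosolic superoxide dismutase ratio, Sod2 over Sod1, was 12.0, 8.54, 4.38 and 5.53 in Opn5-null A to D, against 1.71, 2.32, 2.18 and 2.30 in wild-type A to D. Nfe2l2 over Keap1 was 7.14 to 16.8 in Opn5-null and 4.09 to 5.03 in wild-type corneas. Txnrd1 over Nqo1, both known NRF2 targets, was 13.8 to 43.4 in Opn5-null and 3.13 to 5.44 in wild-type corneas. The catalytic to modifier subunit ratio of glutamate-cysteine ligase, Gclc over Gclm, was 0.639 to 0.703 in Opn5-null and 0.752 to 0.933 in wild-type corneas. Gsta3 over Gsta4 was 0.0112 to 0.0263 in Opn5-null and 0.0549 to 0.0860 in wild-type corneas. A ratio shows unequal change and not which gene changed.

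Without Gsto1, the summed values of the remaining genes were 160026, 145090.0, 129557 and 127611 in Opn5-null A to D, against 118107, 126306, 119092 and 114140.0 in wild-type A to D. On that scale the lowest Opn5-null sum, in D, lay just above the highest wild-type sum, in B. As a share of each library's values the groups overlapped without Gsto1, at 0.565%, 0.580%, 0.554% and 0.519% in Opn5-null A to D, against 0.511%, 0.538%, 0.511% and 0.507% in wild-type A to D. With Gsto1 the Opn5-null sums were 150673 to 228742, all below the wild-type sums of 284858 to 313085.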
